A study of Mus musculus with 6 samples.

Results

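Integrins are the receptors by which cells hold on to the extracellular matrix, and 10 genes for integrin subunits that bind laminin, collagen or fibronectin, or that belong to the same receptors, were followed in lung endothelial cells (ECs). The genes were Itga1, Itga2, Itga3, Itga4, Itga5, Itga6, Itgb1, Itgb4, Itgb5 and Itgb8. Every probe set of the array whose platform annotation gave 1 gene symbol equal to one of these names was taken, which gave 29 of 45101 probe sets, and 10 of the 18194 genes that could be read this way. A probe set is a group of short probes for 1 transcript. Of the 10 genes, 7 had several probe sets, while Itga2, Itgb4 and Itgb8 had 1 each.

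Each integrin is a pair of 1 alpha and 1 beta subunit, and the pair decides which ligand is held. Alpha 1 and alpha 2 with beta 1 are collagen receptors, alpha 3 and alpha 6 with beta 1 and alpha 6 with beta 4 are laminin receptors, alpha 5 with beta 1 is the classical fibronectin receptor, and alpha 4 with beta 1 holds VCAM-1 on other cells as well as fibronectin. Beta 5 and beta 8 pair with alpha v, and these receptors are known for vitronectin binding and for activation of latent TGF-beta, respectively. In vessels, ECs rest on a basement membrane of laminin, collagen IV, nidogen and perlecan, and beta 1 integrins anchor them to it.

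All ECs came from lungs of female NSG mice, an immunodeficient strain without mature lymphocytes, that were 6 to 8 weeks old and carried metastases of MDA-MB-231-LM2, a lung-colonizing derivative of a human breast cancer line. The cancer cells were given by i.v. injection and expressed either a control shRNA (shControl, 3 arrays) or an shRNA for Tenascin C (shTNC, 3 arrays), a matrix protein secreted by the cancer cells, and the lungs were taken at day 20 (3 weeks in the sample labels). CD31 served as the positive mark in the sort, after blood, epithelial, mesenchymal and GFP-positive cancer cells had been gated out, so the knockdown was in human cells that the sort removed, and no probe set here reads its efficiency. The comparison shows how ECs sorted from whole lungs differ when the cancer cells there carry the shRNA for Tenascin C. The study reports that this knockdown also reduced lung colonization. Less Tenascin C and a smaller metastatic load therefore cannot be told apart in the differences below.

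The promoters of Itga5, Itgb1 and Itga1 are shown because at least 1 probe set of each had shControl and shTNC arrays that did not overlap. They are the RefSeq sequences of build GRCm38.p6 from 250 bases before to 50 bases after the gene start, written 5′ to 3′ on the strand of the gene. Capitals mark every match, on either strand, to 1 of 6 motifs: a GC box, a CCAAT box, a TATA box, an AP-1 site, a TEAD site or an ETS core, with the letters searched given after the sequences.
Itga5, chr15:103366742-103367041, minus strand: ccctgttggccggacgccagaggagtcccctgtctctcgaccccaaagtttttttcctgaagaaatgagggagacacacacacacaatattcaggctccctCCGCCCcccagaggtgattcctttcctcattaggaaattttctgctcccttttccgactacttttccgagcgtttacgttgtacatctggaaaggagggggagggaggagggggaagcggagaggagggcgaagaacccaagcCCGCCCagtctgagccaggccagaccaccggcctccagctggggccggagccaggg
Itgb1, chr8:128685404-128685703, plus strand: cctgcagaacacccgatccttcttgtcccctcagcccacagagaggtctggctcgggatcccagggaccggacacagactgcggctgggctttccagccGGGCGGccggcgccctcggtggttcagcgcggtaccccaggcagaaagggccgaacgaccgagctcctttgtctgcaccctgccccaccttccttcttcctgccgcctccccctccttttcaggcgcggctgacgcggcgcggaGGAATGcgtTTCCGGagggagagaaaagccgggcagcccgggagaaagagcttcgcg
Itga1, chr13:115101915-115102214, minus strand: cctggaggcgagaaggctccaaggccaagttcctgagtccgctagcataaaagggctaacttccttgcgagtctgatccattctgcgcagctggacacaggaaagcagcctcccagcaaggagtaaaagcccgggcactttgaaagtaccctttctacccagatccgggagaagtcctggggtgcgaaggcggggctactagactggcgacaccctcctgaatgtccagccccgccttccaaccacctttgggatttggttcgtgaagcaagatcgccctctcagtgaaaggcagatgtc
The Itga5 window held 2 GC boxes and none of the other motifs. The Itgb1 window held 1 GC box, 1 TEAD site and 1 ETS core. The Itga1 window held none of the motifs searched. The GC box was searched as GGGCGG, which 35.7% of 32851 promoters of the same length held. The TEAD site was searched as GGAATG and was present in 14.7% of those promoters. The ETS core was searched as CCGGAA and was present in 14.9% of them. The motifs without a match in these windows were the CCAAT box, present in 37.4% of all promoters, the TATA box, searched as TATAAA and present in 13.6%, and the AP-1 site, which was searched as TGACTCA and was present in 5.2%. No motif searched overlapped another in these windows. The matches describe these letters only. GC made up 58.7% of the Itga5 window, 67.3% of that of Itgb1 and 56.7% of that of Itga1, beside a median of 52.7% over all promoters. RefSeq promoters were matched for 8 of the 10 genes, and Itga6 and Itgb4 were not among them.

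No integrin probe set passed the test between ECs of shControl and shTNC lungs, and the difference was small in most of the genes. Values are log2 expression levels, and a difference is shTNC minus shControl, from limma, with p adjusted by Benjamini-Hochberg across the whole array, with its standard error (SE) and 95% interval. None of the 29 integrin probe sets reached an adjusted p under 0.05, a level that 0 of all 45101 probe sets (0%) reached. At the study's own looser thresholds (an adjusted p under 0.25 together with an unadjusted p under 0.05 and a size above 0.75 on the log2 scale) no integrin probe set passed, while 82 probe sets of the array did (0.182%). At an unadjusted p under 0.05 the counts were 0 of 29 integrin probe sets and 5846 of all probe sets (13%). The smallest unadjusted p among them was 0.0642, for the second Itga1 probe set, with an adjusted p of 0.412. Where the variance was fitted with an intensity trend and robustly, 4 of the 29 passed an unadjusted p of 0.05. The share of all probe sets in that setting was not computed. Read as genes, 2 of the 10 were lower and 0 higher at that level, beside 7.35% and 5.66% of all genes. None of the 29 passed the adjusted threshold, which 9 probe sets of the array passed.

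A gene was read from its probe set with the highest mean. On that basis 7 of the 10 integrin genes had a negative difference and 3 a positive one, with a median of -0.069, beside a median of -0.030 over all genes, of which 58.3% were negative. The median size of a difference, whatever its sign, was 0.12 for the integrin genes and 0.10 for all genes. No integrin gene was lower or higher at an unadjusted p under 0.05, beside 7.12% of all genes lower and 4.54% higher. All 10 intervals contained 0, and 8 of them lay within 0.5 of 0 on the log2 scale. Differences above that size were thus outside the interval of the brightest probe set for all but Itga4 and Itgb4. Among those 8, Itgb8 was near background. Dimmer probe sets had wider intervals, reaching 0.68 for Itga5 and 0.55 for Itgb1. In 9 of the 10 genes the difference itself was under 0.2 in size. In a bulk sample of this kind, fewer cells of a type and less RNA per cell cannot be told apart.

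**Figure D1:**
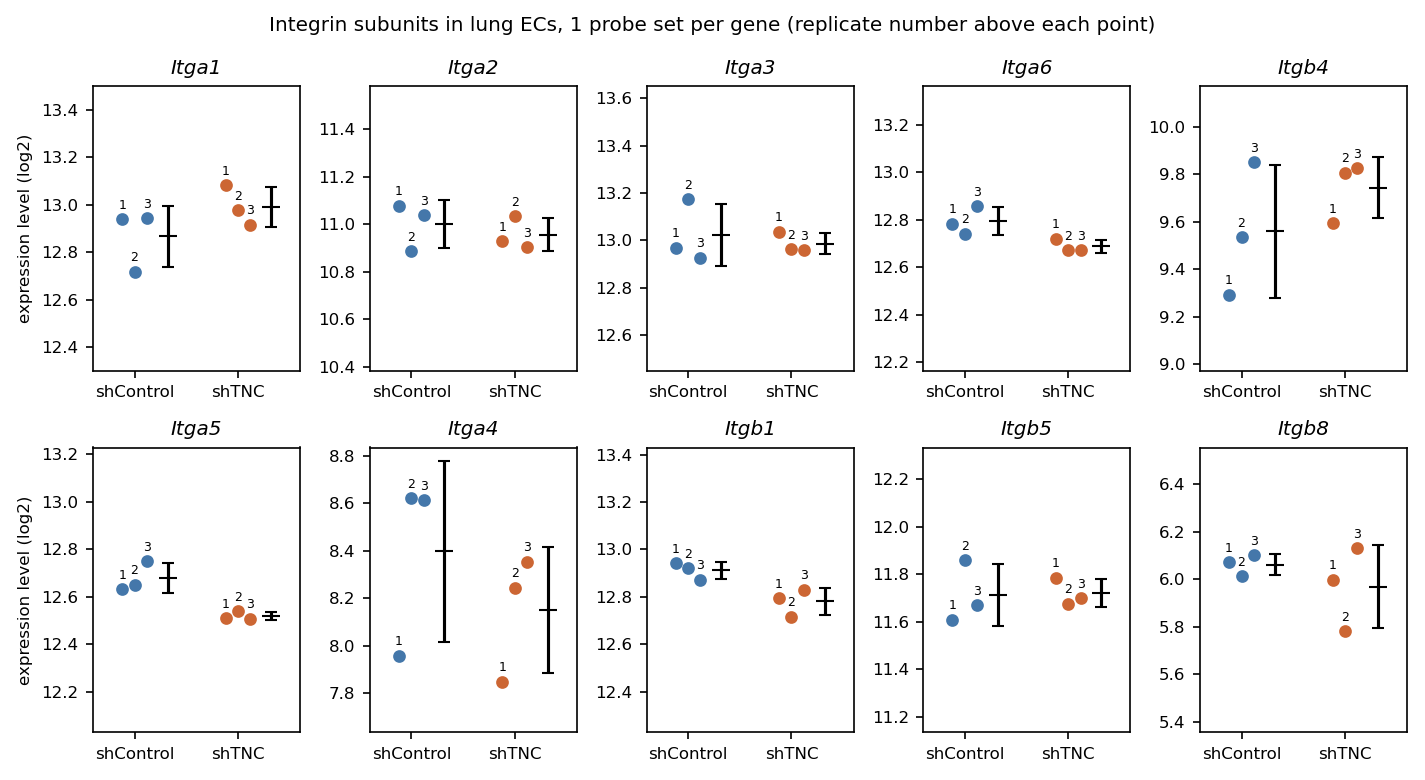
Log2 expression level (vertical axis, the same span in every panel) of the 10 integrin genes in the 3 shControl (blue) and 3 shTNC (orange) arrays, with replicate numbers, each group's mean as a line and its SD as a bar. Groups do not overlap for Itga5, Itga6 and Itgb1, which lie lower in shTNC, and overlap for the other 7 genes.

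Among the collagen receptors, Itga1 lay slightly higher and Itga2 about level. Itga1, the partner of beta 1 in a receptor that favours collagen IV, is at chr13:114958079-115101964. Its brightest probe set (1455251_at) read 12.94, 12.72 and 12.94 in shControl and 13.08, 12.98 and 12.92 in shTNC. The groups overlapped, since 1 shTNC array lay below 2 of the control arrays. The means were 12.87 ± 0.13 (SD, n = 3) and 12.99 ± 0.084 (SD, n = 3), a difference of 0.13 ± 0.099 (SE, interval -0.10 to 0.35), with an adjusted p of 0.624. The second Itga1 probe set (1439713_at) read 11.86, 11.68 and 11.93 in shControl and 12.08, 11.997 and 12.001 in shTNC. Here every shTNC array lay above every shControl array, the only integrin probe set for which that held, beside 8.92% of all probe sets. Its difference was 0.20 ± 0.095 (SE, interval -0.015 to 0.42), or 15.2% on the linear scale. Itga2, the alpha subunit of the other main collagen receptor, which platelets also carry, read 11.08, 10.89 and 11.04 in shControl and 10.93, 11.03 and 10.90 in shTNC. Its groups overlapped and differed by -0.045 ± 0.092 (SE, interval -0.26 to 0.17). Without single arrays the Itga2 difference ranged from -0.0060 (without shControl 1) to -0.10 (without shControl 2).

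The laminin receptor subunits showed no shared direction. Itga3 differed least, with 12.97, 13.17 and 12.93 in shControl and 13.04, 12.96 and 12.96 in shTNC. The difference was -0.038 ± 0.096 (SE, interval -0.26 to 0.18), and the other Itga3 probe sets gave 0.018 and 0.0014. Itga6, which forms a laminin receptor with either beta 1 or beta 4, read 12.78, 12.74 and 12.86 in shControl and 12.72, 12.67 and 12.67 in shTNC. All 3 shTNC arrays lay below the lowest shControl array. The difference was -0.11 ± 0.082 (SE, interval -0.29 to 0.081, adjusted p = 0.612), and the second Itga6 probe set overlapped at -0.081 ± 0.097. Itgb4, whose long cytoplasmic tail links laminin to keratin through plectin in epithelial hemidesmosomes, varied more between arrays. It read 9.29, 9.54 and 9.85 in shControl and 9.60, 9.81 and 9.83 in shTNC, so that the highest array of all was a control. The difference was 0.18 ± 0.15 (SE, interval -0.15 to 0.52). Without shControl 3, Itgb4 differed by 0.33 (unadjusted p = 0.0316, adjusted p = 0.271), and without shControl 1 the difference was 0.049. Epithelial marker genes also varied between arrays, with a mean level over 14 genes of 8.84 to 9.52 in shControl and 8.64 to 9.79 in shTNC, and 13 of the 14 lay above the array's background. Their part in the Itgb4 values was not tested.

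The fibronectin receptor subunit Itga5 had the smallest p of the 10 genes, though its probe sets disagreed. Itga5 lies at chr15:103344286-103366791 and is the alpha subunit by which ECs hold fibronectin during vessel growth. Its brightest probe set (1423268_at) read 12.63, 12.65 and 12.75 in shControl and 12.51, 12.54 and 12.51 in shTNC. The groups did not overlap, and the shTNC arrays lay within 0.031 of each other. The means were 12.68 ± 0.063 (SD, n = 3) and 12.52 ± 0.018 (SD, n = 3), and the difference was -0.16 ± 0.082 (SE, interval -0.35 to 0.029, unadjusted p = 0.0878, adjusted p = 0.453), or -10.4% on the linear scale (interval -21.4% to 2.06%). With the intensity trend and robust variance the unadjusted p was 0.0146 and the adjusted p 0.256. A second bright probe set (1423267_s_at) gave -0.044 ± 0.14, and the dimmer ones gave 0.30 ± 0.17 (1458996_at) and 0.15 ± 0.17 (1457561_at). Averaged over its 4 probe sets, Itga5 differed by 0.061. Which parts of the transcript these probe sets read was not analysed here.

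Itga4, the alpha subunit of the VCAM-1 and fibronectin receptor that leukocytes use to leave vessels, was the least settled. Its brightest probe set (1436037_at) read 7.96, 8.62 and 8.61 in shControl and 7.85, 8.25 and 8.35 in shTNC. The lowest array of each group was its replicate 1, and the groups overlapped. The difference was -0.25 ± 0.20 (SE, interval -0.72 to 0.22), and it moved with single arrays in both directions. It was -0.47 without shControl 1 (unadjusted p = 0.0219, adjusted p = 0.330), but -0.098 without shTNC 1, -0.14 without shControl 2 and -0.14 without shControl 3. The other 4 Itga4 probe sets, 2 of them near background, gave positive differences between 0.14 and 0.22, and the mean of all 5 gave 0.082. Macrophage and monocyte markers moved with the groups: the mean level over 10 genes was 9.10 to 9.25 in shControl and 8.85 to 9.003 in shTNC, with Adgre1 and Siglecf near background. Of these 10 markers, 3 lay lower and 0 higher with an unadjusted p under 0.05, beside 7.12% and 4.54% of all genes. Above background lay 8 of them, and their part in the Itga4 values was not tested.

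Itgb1, the beta subunit that all the alpha subunits above can pair with, lay a little lower in shTNC with both of its bright probe sets. The gene is at chr8:128685654-128733579. The brightest (1452545_a_at) read 12.94, 12.92 and 12.87 in shControl and 12.80, 12.72 and 12.83 in shTNC. The next (1426918_at) read 12.97, 12.88 and 12.87 in shControl and 12.74, 12.73 and 12.76 in shTNC. In both, every shTNC array lay below every shControl array. The differences were -0.13 ± 0.082 (SE, interval -0.32 to 0.058, adjusted p = 0.530) and -0.17 ± 0.081 (SE, interval -0.35 to 0.020, adjusted p = 0.428), or -8.65% and -10.9% on the linear scale. With the intensity trend and robust variance the brightest gave an unadjusted p of 0.0299 and an adjusted p of 0.313. Another probe set above background (1427771_x_at) overlapped at -0.089 ± 0.13, and the 3 near background gave 0.15, 0.11 and -0.14.

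The alpha v partners differed little. Itgb5, the beta subunit of a vitronectin receptor, read 11.61, 11.86 and 11.67 in shControl and 11.79, 11.68 and 11.70 in shTNC, a difference of 0.0081 ± 0.097 (SE, interval -0.21 to 0.23). Its other probe sets gave 0.011, -0.038 and 0.14. Itgb8, which with alpha v activates latent TGF-beta, lay near background, at 6.06 ± 0.045 (SD, n = 3) in shControl and 5.97 ± 0.18 (SD, n = 3) in shTNC, so its difference of -0.093 ± 0.11 says little about the gene. Itgav itself, the alpha subunit of both receptors, differed by 0.16 ± 0.12 with its brightest probe set and by -0.21 ± 0.11 with the next.

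**Figure D2:**
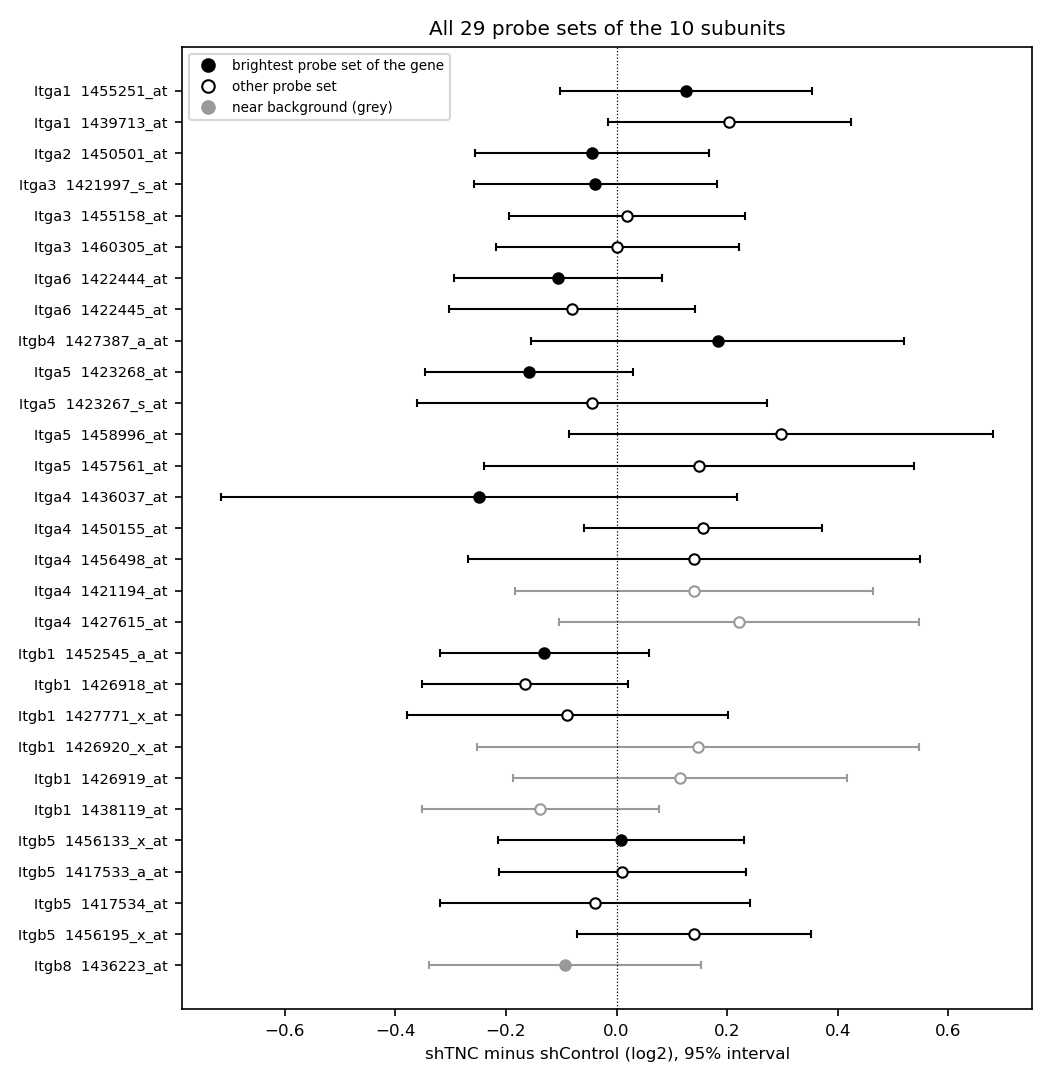
Difference (shTNC minus shControl, log2, horizontal axis) of all 29 integrin probe sets with the 95% interval from limma as a bar. Filled points mark the brightest probe set of a gene and grey marks probe sets near background, and every interval contains 0.

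Opposite signs occurred in 5 of the 7 genes read by more than 1 probe set, and in 4 among probe sets above background. By array order, the groups did not overlap for 3 of the 10 genes on the lower side (Itga5, Itga6 and Itgb1), beside 12.4% of all genes, and for 0 of the 10 on the higher side, beside 7.36% of all genes. Over probe sets, 4 of 29 were lower in every shTNC array, beside 10.5% of all probe sets. In the 2196 genes with a mean level over 12, 14.7% did not overlap on the lower side and 11.8% on the higher side, and the median size of a difference was 0.070. The 5 integrin genes at that level were Itga1 (0.13), Itga3 (-0.038), Itga5 (-0.16), Itga6 (-0.11) and Itgb1 (-0.13). All 3 genes without overlap were thus among these 5, which was not tested. When a gene was read from the mean of all its probe sets, the counts for the integrin genes became 0 on the lower side and 1 on the higher side. The shares of all genes were then 11.3% and 8.07%, and the median of the 10 genes became 0.012.

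**Figure D3:**
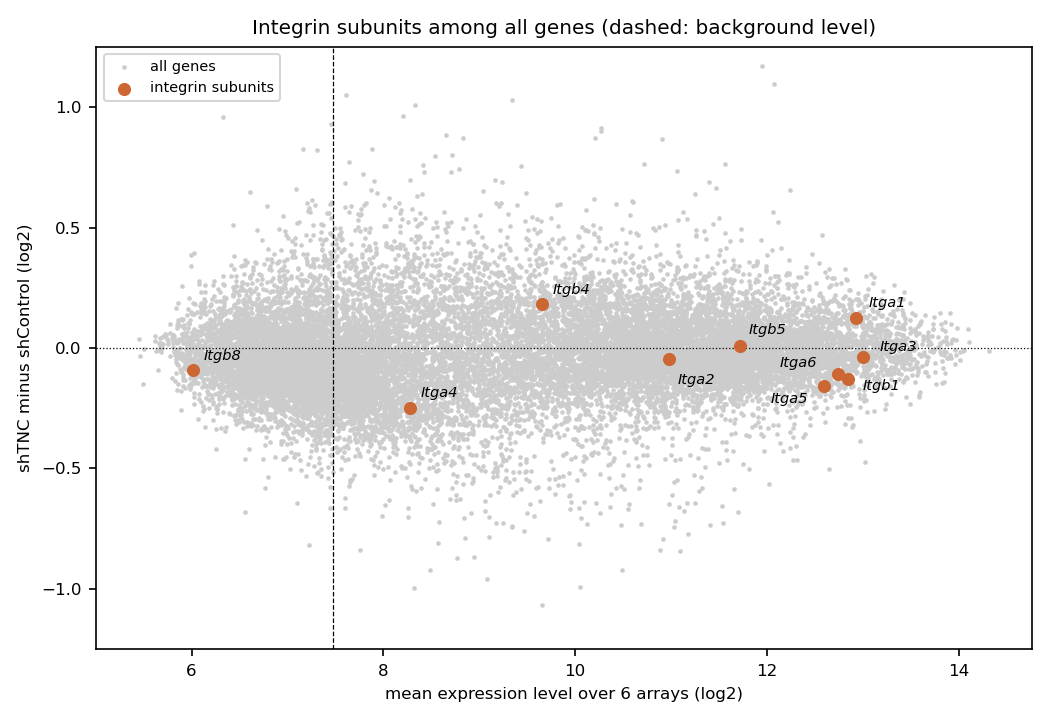
Difference (shTNC minus shControl, log2, vertical axis) against the mean log2 level over the 6 arrays (horizontal axis) for all genes (grey) and the 10 integrin genes (orange), with the background level of 7.48 dashed. The integrin genes lie inside the grey cloud, 5 of them at levels over 12, and 4 genes of the array lie outside the vertical axis.

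Since integrins work as pairs, the ratio of 2 subunits within an array was also described, without a test. Each gene was read from its brightest probe set. The log2 ratio of Itga1 to Itgb1 was higher by 0.26 in shTNC. That of Itga1 to Itga5, which are both alpha subunits and form no pair, was higher by 0.28. Neither ratio overlapped between the groups, and the share of all gene pairs without overlap was not computed. Both set Itga1, with a positive difference, over a gene with a negative one, so their sign follows from the differences given above. The ratios were not among the planned results. The other Itga5 probe sets differed by -0.044, 0.30 and 0.15, so the ratio to Itga5 holds for its brightest probe set only. The ratio of Itga5 to Itgb1 differed by -0.028 and that of Itga6 to Itgb1 by 0.024, both with overlapping groups. Itga2 over Itgb1 differed by 0.085, Itga3 over Itgb1 by 0.092 and Itga4 over Itgb1 by -0.12, also with overlap. For the alpha 6 beta 4 receptor, the ratio of Itga6 to Itgb4 differed by -0.29 with overlapping groups. Such ratios show unequal values of the probe sets and not which subunit differed.

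One control array stood apart from the others. On the first principal component of all probe sets (36.6% of the variance), shControl 2 was at -43.6, the other controls at -11.1 and 0.251, and the shTNC arrays between 16.1 and 21.1. It was not set apart in this way among the 23 integrin probe sets above background. There shControl 2 was the highest control in 10 and the lowest in 6, shControl 3 in 9 and 6, and shControl 1 in 4 and 11. The shControl 2 array held the lowest Itga1 values with both probe sets and the highest Itga3 and Itgb5 values with all of theirs. Without it, Itga1 differed by 0.051 and its second probe set by 0.13, still without overlap, while Itga5 differed by -0.17, Itga6 by -0.13 and Itgb1 by -0.13. The median of the 10 genes was then -0.11, 4 genes did not overlap on the lower side (Itga2 in addition) and 1 on the higher side (Itgb5), beside 16.7% and 12.6% of all genes. Cell cycle genes also separated the groups. Of 17, 12 lay lower and 0 higher with an unadjusted p under 0.05, beside 7.12% and 4.54% of all genes. Their median difference was -0.61. Their mean levels were 10.58 to 10.97 in shControl, highest in shControl 2, and 10.23 to 10.32 in shTNC. Their part in the integrin values was not tested. The spread of the 3 arrays was narrower in shTNC for 8 of the 10 integrin genes and for 11891 of the 18194 genes.

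The cells carried the marks of ECs. All 12 pan-endothelial genes lay above background, with a mean level of 13.38 to 13.44 in shControl and 13.38 to 13.42 in shTNC and a median difference of -0.013. Markers of EC types were less even. Of 7 arterial markers 2 were higher and 0 lower at an unadjusted p under 0.05, beside 4.54% and 7.12% of all genes. Of 5 venous markers 0 were higher and 2 lower. No lymphatic, aerocyte or general capillary marker reached that level. The part of EC types in the integrin values was not tested. Fibroblast markers (9 of 9 above background) had mean levels of 9.74 to 10.18 in shControl and 10.05 to 10.48 in shTNC, and mesothelial markers (3 of 5) 7.68 to 7.84 and 7.79 to 9.03. Pericyte and smooth muscle markers (10 of 10) had mean levels of 8.75 to 8.90 in shControl and 8.85 to 9.06 in shTNC. Of these, 2 were higher and 0 lower at an unadjusted p under 0.05, beside 4.54% and 7.12% of all genes. Platelet markers (7 of 8) had mean levels of 8.10 to 8.44 and 8.14 to 8.35. Lymphocyte markers were near background except for 1 of 5. The part of such other cells in the integrin values was not tested.

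Of the other integrin subunits, 14 of 16 listed genes were measured, with a median difference of -0.13, and 2 lay higher and 1 lower with an unadjusted p under 0.05, beside 4.54% and 7.12% of all genes. Itga8, the alpha subunit of a receptor of mesenchymal cells, read 8.63, 8.17 and 7.82 in shControl and 8.61, 9.08 and 9.58 in shTNC, which overlap by 1 array of each group. Its difference was 0.88 ± 0.27 (SE, unadjusted p = 0.0106, adjusted p = 0.275), and without single arrays it ranged from 0.64 (without shTNC 3) to 1.12 (without shTNC 1). A second Itga8 probe set, near background, gave 0.56 ± 0.28 with an unadjusted p of 0.0777 from limma. The array with its lowest value, shControl 3, and that with its highest, shTNC 3, were also those with the lowest and highest mean level of fibroblast markers, and the part of such cells in Itga8 was not tested. Itgb7, a partner of alpha 4 in gut-homing lymphocytes, read 9.33, 9.44 and 9.21 in shControl and 9.71, 9.68 and 9.54 in shTNC. These did not overlap and differed by 0.32 ± 0.098 (SE, unadjusted p = 0.0113, adjusted p = 0.278). Itgax, the CD11c subunit of myeloid cells, did not overlap either, at -0.28 ± 0.11 (SE, unadjusted p = 0.0335, adjusted p = 0.347). Without shControl 1 it differed by -0.18 with an unadjusted p of 0.111 from limma, and the p also missed 0.05 without shTNC 1 and without shTNC 2. The macrophage markers given above lay lower in shTNC too, and their part in Itgax was not tested.

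Among ligands, 10 of 11 laminin chains were measured, with a median of -0.20. Of these, 3 lay lower and 0 higher with an unadjusted p under 0.05, beside 7.12% and 4.54% of all genes, and the list was not tested as a whole. Lama4, the alpha chain of the main endothelial laminin, differed by -0.64 ± 0.11 (SE, unadjusted p = 0.000424, adjusted p = 0.182), Lama1 by -0.52 ± 0.13 (SE, adjusted p = 0.240) and Lamc1, the gamma chain of most laminins, by -0.25 ± 0.087 (SE, adjusted p = 0.303). In all 3 the groups did not overlap with the brightest probe set. The second Lama4 probe set overlapped at -0.66 ± 0.21, and the second Lamc1 probe set gave -0.20 ± 0.088 without overlap. None of these chains passed the adjusted threshold, and the laminin receptor subunits among the 10 genes (Itga3, Itga6, Itgb1 and Itgb4) differed by at most 0.18 in size. Itga7, a laminin receptor subunit outside the 10 that was picked after its values were seen, differed by -0.21 ± 0.095 (SE, adjusted p = 0.396) with overlap.

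Of the 18 collagen chains, all measured, an unadjusted p under 0.05 was reached by 2 on the lower and 3 on the higher side, beside 7.12% and 4.54% of all genes, with a median of 0.043. Col15a1 and Col18a1, collagens of the basement membrane zone, were lower in every shTNC array, by -0.43 ± 0.094 and -0.25 ± 0.091 (SE, adjusted p = 0.208 and 0.319). Col4a3, a chain of the collagen IV of the alveolar wall, differed by 0.70 ± 0.16 (SE, adjusted p = 0.219) without overlap. A second Col4a3 probe set gave 0.52 with overlap. The partner chains Col4a4 and Col4a5 differed by 0.41 and 0.34 with overlap.

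Fibronectin itself, the ligand of alpha 5 beta 1, read 11.39, 11.20 and 11.04 in shControl and 11.15, 10.97 and 11.48 in shTNC. Fn1 thus differed by -0.0097 ± 0.15 (SE, interval -0.35 to 0.33). Of the 14 fibronectin and other ligand genes measured of 16 listed, an unadjusted p under 0.05 was reached by 2 on the lower and 1 on the higher side, again beside 7.12% and 4.54% of all genes, with a median of 0.0066. The higher one was Vcam1, the EC ligand of alpha 4 beta 1, which read 10.89, 10.65 and 10.86 in shControl and 11.16, 11.08 and 11.08 in shTNC. Its difference was 0.31 ± 0.096 (SE, unadjusted p = 0.0122, adjusted p = 0.281), and its other probe sets gave 0.39 and 0.27, all 3 without overlap. The lower ones were Thbs1, a matrix protein that binds several integrins, at -0.77 ± 0.12 (SE, adjusted p = 0.182), and Ccn1, a matricellular ligand of alpha v and alpha 6 integrins, at -0.24 ± 0.092 (SE, adjusted p = 0.346). Sema7a, an alpha 1 beta 1 ligand, at -0.19, and Ntn1, which binds alpha 6 beta 4 and alpha 3 beta 1, at 0.10, also did not overlap.

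**Figure D4:**
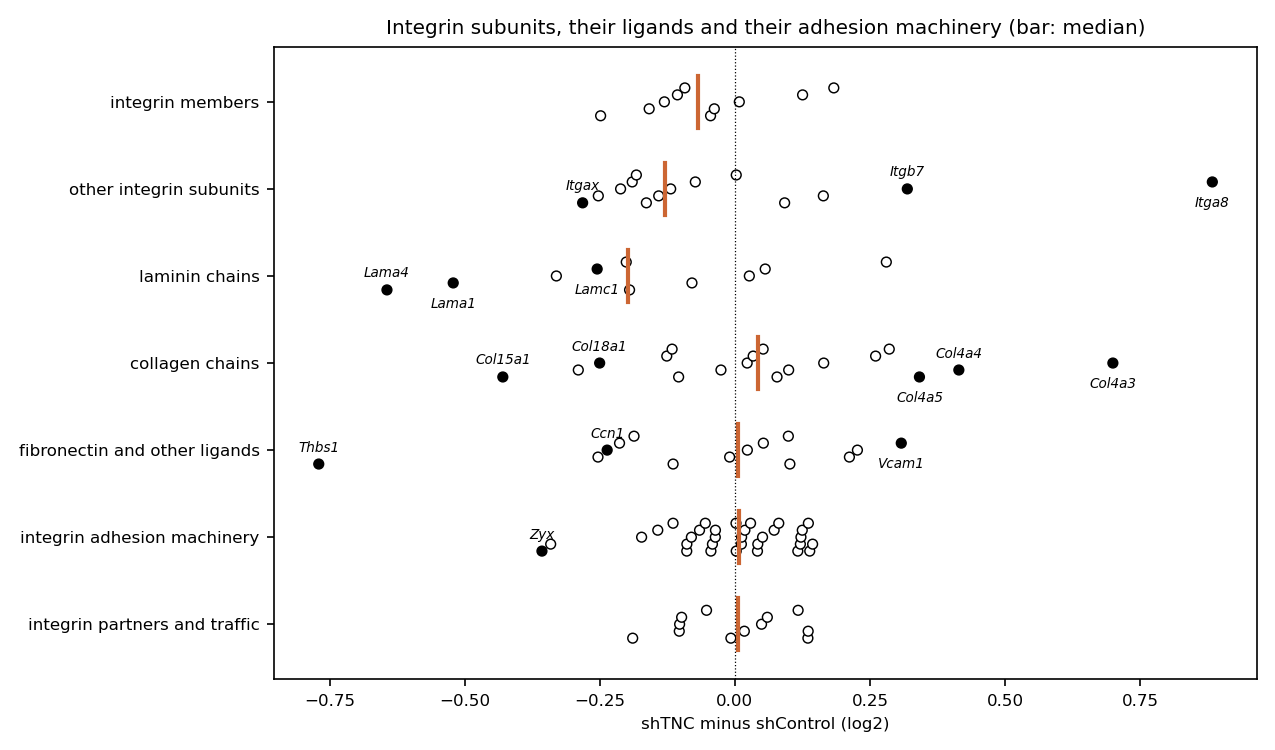
Difference (shTNC minus shControl, log2, horizontal axis) of each measured gene of the integrin group and 6 related lists, with the list median as an orange bar. Filled, named points have an unadjusted p under 0.05, and none of them is among the 10 integrin genes at the top.

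Genes for the proteins that couple integrins to actin centred near 0. Of 35 listed genes of this adhesion machinery 32 were measured, with a median of 0.0072, and only Zyx had an unadjusted p under 0.05. Zyx encodes zyxin, a protein of mature focal adhesions and stress fibres, and read 12.13, 12.05 and 12.18 in shControl and 11.66, 11.76 and 11.87 in shTNC. It differed by -0.36 ± 0.093 (SE, unadjusted p = 0.00472, adjusted p = 0.244), and its dim second probe set by -0.19 ± 0.11. Groups did not overlap for 5 of the 32 genes on the lower side and 1 on the higher side, beside 12.4% and 7.36% of all genes, so that the lower share was near that of all genes. Those lower besides Zyx were Lims1 (-0.17), a partner of integrin-linked kinase, Crk (-0.14), Sharpin (-0.11) and Vcl (-0.089), which encodes vinculin, and the one higher was Parvb (0.14). Of 12 membrane partners and trafficking genes measured of 13 listed, 0 had an unadjusted p under 0.05. Cd151, the tetraspanin of laminin-binding integrins, was lower in every shTNC array at -0.099, while Cd9, another tetraspanin, Slc3a2, which binds beta 1 tails, and Arf6, a regulator of beta 1 recycling, were higher in every one at 0.14, 0.14 and 0.12, beside the same 12.4% and 7.36%. Of the 4 hemidesmosome genes, Plec (-0.073) and Cd151 did not overlap and 0 had an unadjusted p under 0.05. Itga11, Itgad, Lrrc32, Spp1, Fermt1, Ptk2 and Cd63 were not analysed here.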

How the data were processed

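RNA of sorted ECs was hybridized to Affymetrix GeneChip arrays for the mouse genome, 1 per sample, with labelled cDNA made from 2 ng of total RNA by a 3' IVT Pico kit. The authors deposited log2 values, 1 per probe set, which they had normalized by RMA in Chipster. Many low values are tied, and whether another probe summary was used was not settled here. All 45101 probe sets entered a two-sided test with lmFit and eBayes of limma 3.58.1 (R 4.3.3), unfiltered, and p-values were adjusted over all of them by Benjamini-Hochberg. The script was tested on simulated data. Of the probe sets, 34958 carried 1 gene symbol, 932 several and 9211 none, and the brightest single-symbol probe set by its mean over the 6 arrays stood for a gene. Olfactory receptor genes (44 probe sets) set the background level at their 95th percentile, 7.48. Means below it are called near background, and 67.2% of the array was above. Samples were grouped by their labels, which call them biological replicates and give no batch. An exact permutation test of 3 against 3 arrays cannot go below p = 0.1, and precision is limited by the number of arrays. The members and the lists were chosen with earlier results of these data known. The genes named are all 10 members, up to 4 genes per list with the smallest unadjusted p under 0.05, and ligands or partners without overlap, and the adhesion machinery genes without overlap were named after their values were seen. RefSeq gene positions and promoters are of GRCm38.p6. Quantile normalization, median centring, a background filter, an intensity trend with robust variance, 1 probe set per gene, array weights, averaging the probe sets of a gene, a replicate block and leaving out each array made 14 alternatives, and counts of genes without overlap were added after seeing the data.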

Additional observations from a re-analysis of the deposited data

How the results depend on the processing

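Over 14 alternative settings, 132 of 139 values of the 10 integrin genes kept their direction, 0 passed an adjusted p of 0.05 and 5 passed an unadjusted p of 0.05. The background filter, the intensity trend with robust variance, 1 probe set per gene and the replicate block leave each difference as it was. Direction could not change in those settings, so the count of kept directions overstates how far it was tried. No setting brought an integrin probe set past the adjusted threshold. Without probe sets near background the median of the integrin genes was -0.045, and Itgb8 had no value. With the mean of all probe sets of a gene the median was 0.012. Here 0 genes did not overlap on the lower side and 1 on the higher side, beside 11.3% and 8.07% of all genes. Itga4 (0.082) and Itga5 (0.061) turned positive, since their dimmer probe sets were positive. With the intensity trend and robust variance, 2 genes (Itga5 and Itgb1) were lower at an unadjusted p under 0.05, beside 7.35% of all genes.

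Leaving out each array gave a median between -0.11 and -0.055, the first of these without shControl 2. The count at an unadjusted p under 0.05 was 0 to 1 on the lower side (Itga4 without shControl 1, beside 6.7% of all genes). On the higher side it was 0 to 1 (Itgb4 without shControl 3, beside 5.04% of all genes). The count without overlap was 3 to 4 on the lower side and 0 to 1 on the higher side. The shares of all genes without overlap were 16.7% to 22.5% and 10.7% to 12.6%, above those with all arrays. Itgb5 ranged from -0.044 to 0.081, Itga3 from -0.086 to 0.037 (positive without shControl 2) and Itgb8 from -0.17 to 0.0019. The cause was not tested.

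Replicate numbers are shared between the groups. Deviations of same-numbered arrays correlated at -0.085, 0.041 and 0.10, and those of differently numbered arrays at -0.11 to 0.074. With 3 arrays per group these correlations cannot decide whether the numbers pair the samples. With a replicate block in limma's test 1 integrin gene was lower at an unadjusted p under 0.05, beside 6.86% of all genes. This was Itga4, with a limma unadjusted p of 0.0456 and an adjusted p of 0.385.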

Other observations

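Itgb3bp, named for its binding to the beta 3 integrin tail but best known as a centromere protein gene, was picked after its values were seen. Its probe set 1420665_at read 7.76, 7.69 and 7.92 in shControl and 8.55, 8.44 and 8.20 in shTNC, which did not overlap. The difference was 0.60 ± 0.12 (SE, unadjusted p = 0.000770, adjusted p = 0.184 from limma). Another Itgb3bp probe set, near background, gave 0.55 ± 0.10 without overlap, while the brightest gave 0.065 (SE 0.0997) with overlap. Itgb3, the beta subunit of the platelet and EC vitronectin receptor, differed by -0.12 ± 0.17 with its brightest probe set and by -0.29 ± 0.15 with the second.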
